A study of Solanum lycopersicum with 84 samples.

Results

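The 50 transcripts with the most reads in the embryo of the filling tomato seed took up 58.8% ± 4.18 of the counts of an embryo library at 35 days after flowering (DAF), 65.0% ± 0.942 at 42 DAF and 52.5% ± 5.05 at 49 DAF (SD, n = 3 each). They were chosen by level: counts were expressed per 1000000 counts of the library (CPM), averaged over the 9 embryo libraries of these 3 ages, and the 50 genes with the highest mean were taken of 33976 listed. The values of those 9 libraries chose the genes, so everything said of them below is a description, and tests are kept to libraries that the choice did not use.

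The series followed the seed of Solanum lycopersicum cv. Moneymaker in greenhouse plants whose flowers were tagged at anthesis, to record transcripts by tissue and age through maturation. RNA-seq was run on freshly harvested seeds, taken whole at 15, 21 and 28 DAF and hand-dissected into tissues from 35 DAF. Several seeds were pooled in each of 3 biological replicates per group. The 28 groups (84 libraries) covered embryo and endosperm, each sampled at 35, 42 and 49 DAF and then by 8 fruit stages, namely mature green (MG, 56 DAF), breaker (B, 63 DAF), pale orange (PO, 67 DAF), orange (O, 70 DAF), dark orange (DO, 72 DAF), red (R, 76 DAF), and red plus 7 or 14 days (R7, 83 DAF, and R14, 90 DAF), seed coat at 35, 42 and 49 DAF, and whole seed at 15, 21 and 28 DAF. All groups were of this cultivar, grown in a heated and lit greenhouse with no treatment, over more than 1 season, with no season given per library, and the RNA extraction setting differed between tissues, so that tissue and extraction cannot be told apart.

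In the filling phase a seed lays down the reserves that will feed the seedling. Storage globulins of the vicilin and legumin families are made on the rough endoplasmic reticulum and packed into protein storage vacuoles, while triacylglycerol is kept in oil bodies coated with oleosins. Late embryogenesis abundant (LEA) proteins, dehydrins and small heat shock proteins follow, and are associated with tolerance of drying. In Arabidopsis these genes are controlled by the B3 factors FUS3 and ABI3 and the bZIP factor ABI5, and WRI1 drives fatty acid synthesis. The tomato endosperm stays alive around the embryo and stores reserves too.

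Library totals ran between 16908779 and 22734330 counts with a median of 21199645, and no pair of replicates agreed within sampling noise. The labelled tissues matched transcript lists that the study chose on these same libraries, which are no independent evidence. The 109 embryo genes summed to between 235 and 999.7 CPM in embryo groups and between 27.1 and 97.7 CPM in endosperm groups, and the 168 endosperm genes to between 40.6 and 360.0 CPM in embryo and between 1592 and 14668 CPM in endosperm. Replicate 3 of endosperm 35 DAF, 42 DAF and R14 stood apart from its group in the sum of the 109 embryo genes. The counts and named values that rest on the R14 library are given with and without it below. Further endosperm libraries stood apart in the sum of the members with the largest ratio of embryo to endosperm during filling. In that sum MG replicate 2, a library used in tests, had 224 CPM, beside 49.4 and 110 CPM in its group. R replicate 3 had 234 CPM, beside 74.7 and 12.3 CPM, O replicate 1 had 142 CPM and DO replicate 2 had 106 CPM. The 109 embryo genes summed to between 29.5 and 34.0 CPM in the endosperm MG libraries.

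Of the 50 transcripts, 23 had a description in the sources used here and 27, among them the 7 with the most reads, had none and are named by their ID. The descriptions come from lists that the study drew up on these libraries, mostly for late maturation and desiccation tolerance. They cover 1818 of the 33976 genes. The makeup of the described genes is thus not independent evidence of what the embryo makes. Counts of described genes, members or others, that rose or fell are not independent evidence either. By role there were 2 vicilin-like storage proteins, 2 oil body proteins, 11 LEA or stress protection proteins, 1 defensin and 7 others. Roles rest on words in the descriptions. The hydroxysteroid dehydrogenase Solyc06g072670.3.1 is among the 7 others because its description did not match the words used for oil body proteins. By ID, 10 of the 50 and 4 of the highest 6 were on chromosome 9, and the only close neighbours were Solyc08g080480.3.1 and Solyc08g080490.3.1. CPM is not corrected for transcript length, so the order of members is an order of reads and not of molecules.

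During filling most of that share was in 6 transcripts. Ranks 1 to 6 held 50.7% ± 3.98 of embryo counts at 35 DAF, 52.9% ± 2.13 at 42 DAF and 32.5% ± 6.59 at 49 DAF, then 7.81% ± 2.78 at MG and 2.38% ± 0.321 at R14 (SD, n = 3 each). The other 44 ran another way, with 8.16% ± 0.271, 12.1% ± 1.35 and 20.0% ± 1.77 at 35, 42 and 49 DAF, 23.9% ± 0.319 at MG and 12.7% ± 1.62 at R14. The number of genes that held 50% of the counts of an embryo library was 5 to 11 at 35 DAF, 5 to 6 at 42 DAF, 18 to 59 at 49 DAF, 191 to 305 at MG and 503 to 655 at R14.

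Through fruit ripening the 50 members held 23.8%, 21.5%, 20.4%, 17.9%, 16.8% and 14.7% of embryo counts at B, PO, O, DO, R and R7, and 15.1% ± 1.88 at R14, so the share was lower at every stage than at the one before it except at R14, where the difference lay within the spread of replicates. In the endosperm, which the choice did not use, the same 50 held 36.9% ± 3.09, 35.3% ± 4.94 and 26.2% ± 1.12 at 35, 42 and 49 DAF, 19.8% ± 0.517 at MG and 16.2% ± 2.47 at R14. The share of whole seed counts was 1.21% ± 0.183 at 15 DAF, 3.77% ± 0.839 at 21 DAF and 12.7% ± 1.53 at 28 DAF. In the seed coat it was 2.33% ± 0.431, 3.88% ± 0.871 and 2.79% ± 0.208 at 35, 42 and 49 DAF. Embryo and endosperm ranges did not overlap at 35, 42 or 49 DAF or at MG, but did at R14, where the embryo libraries lay between 12.9% and 16.3% and the endosperm libraries between 13.9% and 18.8%. The endosperm 42 DAF libraries held 30.9%, 34.3% and 40.7% and the endosperm R14 libraries 13.9%, 15.8% and 18.8%, replicate 3 being the highest in both. In bulk tissue, fewer cells of a type and less RNA per cell cannot be told apart, and a share falls when other transcripts rise.

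**Figure D1:**
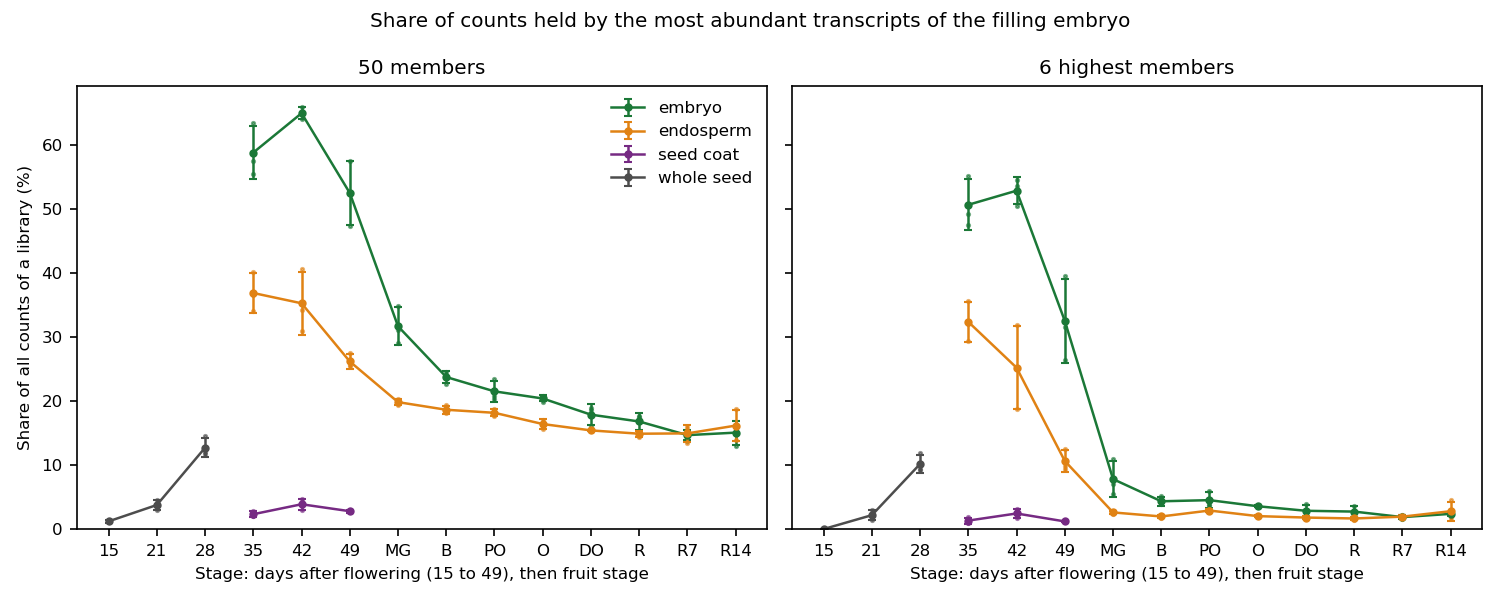
Share of library counts (%) held by the 50 members, and by ranks 1 to 6 among them, against stage (DAF, or fruit stage from MG to R14) in embryo, endosperm, seed coat and whole seed. Small points are libraries, large points joined by lines are group means, and bars are the SD (n = 3); the embryo share was highest at 42 DAF, with a mean of 65.0%, and averaged 15.1% at R14.

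The 6 leading transcripts have no description here. Solyc09g025210.3.1 had 150447, 133664 and 130140.0 CPM at 35 DAF, 114661, 130693 and 125147 CPM at 42 DAF and 80459, 41584 and 29527 CPM at 49 DAF. Solyc09g072560.4.1 had 119046, 107830.0 and 102424 CPM at 35 DAF, 103997, 117431 and 122560.0 CPM at 42 DAF and 62305, 46669 and 32762 CPM at 49 DAF. Solyc03g005580.2.1 had 61261, 56014 and 53604 CPM at 35 DAF, 24408, 41125 and 44595 CPM at 42 DAF and 14087, 11504 and 10162 CPM at 49 DAF. These 3 were highest at 35 or 42 DAF and their 49 DAF libraries all lay below those of 35 DAF. Solyc09g090150.4.1 had 93184, 83287 and 79615 CPM at 35 DAF, 103431, 107861 and 103438 CPM at 42 DAF and 81236, 64500.2 and 56150.5 CPM at 49 DAF, with its highest libraries at 42 DAF. Solyc09g082340.2.1 had 81479.9, 68764 and 67949.6 CPM at 35 DAF, 92073, 86783 and 76055 CPM at 42 DAF and 88545, 100020.0 and 92504 CPM at 49 DAF. Solyc08g080490.3.1 had 46289, 43370.3 and 42203 CPM at 35 DAF, 66238, 61522 and 64674 CPM at 42 DAF and 68649.9, 52128 and 43372 CPM at 49 DAF. The last 2 had 49 DAF means above those of 35 DAF, Solyc09g082340.2.1 with 93689.7 CPM at 49 DAF and 72731 CPM at 35 DAF.

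After filling, the 6 parted. Solyc09g082340.2.1 still had 20569 ± 2371 CPM at R14, 0.245 of its filling mean, and 40641 ± 4824 CPM at MG (SD, n = 3 each). Solyc03g005580.2.1 had 31.5, 28.7 and 23.4 CPM at R14, 7.92e-04 of its filling mean, and 1126, 135 and 79.2 CPM at MG. At MG replicate 1 was above the other libraries in each of these 6, and for Solyc03g005580.2.1 most of the mean came from it. Solyc09g090150.4.1 and Solyc09g072560.4.1 at R14 were at 0.00284 and 0.00401 of their filling means, Solyc08g080490.3.1 at 0.0142 and Solyc09g025210.3.1 at 0.0174.

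Ranks 7 to 12 took fewer reads, Solyc03g005580.2.1 at rank 6 having 3.01 times the mean CPM of Solyc08g080480.3.1 at rank 7. Solyc08g080480.3.1 had 6449.6, 5006 and 4772 CPM at 35 DAF, 17792, 13551 and 13030.3 CPM at 42 DAF and 19333, 14096 and 11301 CPM at 49 DAF. The vicilin-like Solyc09g065470.3.1, described as vicilin-like antimicrobial peptides 2-1, a relative of the vicilin storage globulins, had 6053, 5483 and 5165 CPM at 35 DAF, 7863, 6403 and 5814 CPM at 42 DAF and 13353, 17198 and 19704 CPM at 49 DAF. Solyc06g048840.3.1 had 988, 684 and 382 CPM at 35 DAF, 8622, 5534 and 4508 CPM at 42 DAF and 13024, 14023 and 15698 CPM at 49 DAF. All 3 had every 49 DAF library above every 35 DAF library. The 11 kDa LEA protein Solyc10g078770.2.1 had 2250.2, 1872 and 1611 CPM at 35 DAF, 6971, 4934 and 4769.7 CPM at 42 DAF and 12332, 11529.9 and 12109 CPM at 49 DAF. Solyc07g065840.2.1 had 5922, 6109.8 and 6483 CPM at 35 DAF, 4774, 5503 and 5736 CPM at 42 DAF and 6382, 7048 and 7808 CPM at 49 DAF. Solyc12g010920.2.1 had 4611, 4528 and 4099.7 CPM at 35 DAF, 5644, 5561 and 5289 CPM at 42 DAF and 5475, 5654 and 6345 CPM at 49 DAF. The levels of the last 2 differed little by age, while that of the LEA protein at 49 DAF was 6.27 times that at 35 DAF.

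**Figure D2:**
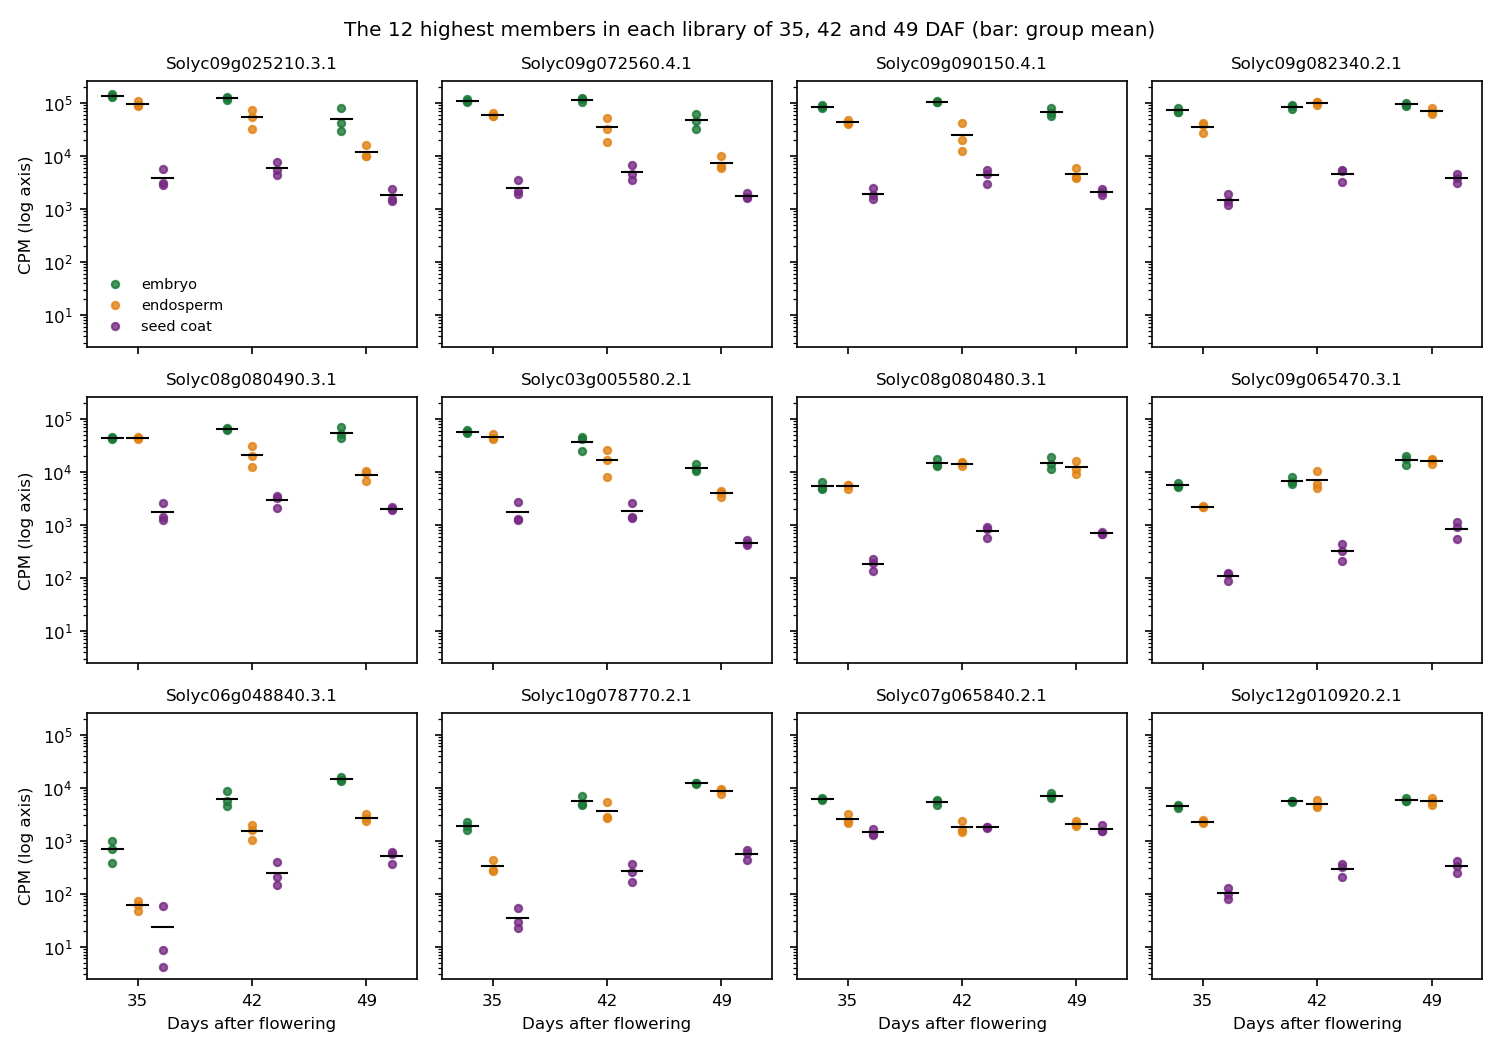
CPM (log scale) of the 12 members with the most reads in every library of embryo, endosperm and seed coat at 35, 42 and 49 DAF, 1 panel per transcript. Each point is a library and bars are group means; the embryo libraries of Solyc09g025210.3.1 at 42 DAF lie between 114661 and 130693 CPM.

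The edge of the 50 was not sharp. Rank 48 was the EC metallothionein-like Solyc01g112230.4.1 (1229.9 CPM), rank 49 the hydroxysteroid dehydrogenase Solyc06g072670.3.1 (1186 CPM) and rank 50 the LEA protein Dc3 Solyc03g116390.4.1 (1179 CPM). Just outside were a further LEA protein, Solyc12g010820.2.1 (1178 CPM), Solyc12g096930.2.1 (1158 CPM) and the oxidoreductase Solyc09g015070.3.1 (1131 CPM). Ranking on 35, 42 or 49 DAF alone kept 36, 46 and 43 of the 50, and kept all of ranks 1 to 6 at 35 and 42 DAF and 5 of them at 49 DAF. Solyc02g004000.1.1, at rank 23, rests on 1 library: it had 1001, 16306 and 1081 CPM at 49 DAF and fell to rank 54 without replicate 2.

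Levels moved in 2 directions within filling. The 49 DAF mean was above the 35 DAF mean in 36 of 50 members, over 10-fold in 9. The defensin Solyc04g072470.4.1, of a family of small antimicrobial peptides, had 206, 106 and 8.85 CPM at 35 DAF, 4554, 3374 and 3031 CPM at 42 DAF and 5777, 4924 and 5234 CPM at 49 DAF. The dehydrin Solyc02g084840.3.1, a hydrophilic LEA protein, had 350.0, 275 and 240.2 CPM at 35 DAF, 2662, 1329 and 1146 CPM at 42 DAF and 5439, 8741 and 9428 CPM at 49 DAF. Both were higher in every 49 DAF library than in any at 35 DAF. Solyc08g078890.3.1, with no description, ran against these, at 2449, 2976 and 2639 CPM at 35 DAF, 683, 1050.0 and 1566 CPM at 42 DAF and 167, 187 and 107 CPM at 49 DAF. Replicates of a member spread by a median of 8.40%, 14.9% and 14.5% of its mean (coefficient of variation) at 35, 42 and 49 DAF.

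Over all 11 embryo stages, 25 members had their highest mean at 35, 42 or 49 DAF (9, 5 and 11), 19 at MG and 6 later. With levels scaled by TMM factors in place of library totals the same counts were 40 (6, 16 and 18), 7 and 3. The mean log2 TMM factor lay between -0.92 and -0.54 in the groups of the filling embryo and between -0.10 and 0.25 in later embryo groups. The stage of the highest mean thus depends on the scaling, and the courses given here are in CPM from library totals.

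Members of the LEA and stress protection group were mostly highest at MG by library totals (9 of 11). With TMM factors 3 of 11 were highest at MG, 7 at 49 DAF and 1 at 42 DAF. The LEA protein Solyc09g008770.3.1 had means of 650.4, 2568 and 9205 CPM at 35, 42 and 49 DAF, 9990.2 ± 2102 CPM at MG and 3403 ± 726 CPM at R14 (SD, n = 3 each). The 17.5 kDa class I small heat shock protein Solyc04g072250.4.1, a chaperone that holds unfolded proteins, had 187, 1159 and 3581 CPM, then 6622 ± 493 CPM at MG and 2363 ± 1178 CPM at R14. LEA D-29 (Solyc12g098900.2.1) had 252, 711 and 4335 CPM, then 6151 ± 385 and 2998 ± 653 CPM. By library totals these 3 had means that were higher at each later filling age and highest at MG, while with TMM factors Solyc09g008770.3.1 and Solyc12g098900.2.1 were highest at 49 DAF. The exceptions in the group by library totals were the metallothionein Solyc01g112230.4.1, of a family that binds metal ions, highest at 35 DAF with 1491 ± 38.4 CPM, and LEA Dc3 Solyc03g116390.4.1, highest at 49 DAF with 1934 ± 213 CPM. Of the LEA proteins not given elsewhere, Solyc09g014750.1.1 had 1513, 3424 and 6555 CPM at 35, 42 and 49 DAF and 12926 ± 309.8 CPM at MG, and Solyc02g077970.4.1 937, 1334 and 2385 CPM and 2688 ± 157 CPM.

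Among storage and oil body members, 3 of 4 had their highest mean at MG by library totals and 0 of 4 with TMM factors, which put 3 at 49 DAF and oleosin at 42 DAF. The stages that follow are by library totals. Vicilin-like Solyc09g065470.3.1 had 17884 ± 1695 CPM at MG and the other vicilin-like protein, Solyc02g085590.4.1, 5142 ± 352 CPM, their highest stages. Oleosin Solyc06g034040.1.1, which coats oil bodies, had 3915, 3738 and 3369 CPM at 35 DAF, 6154, 5166 and 5117 CPM at 42 DAF and 6256, 5919 and 6644 CPM at 49 DAF, and 4221 ± 231 CPM at MG. The oil body-associated protein 2A-like Solyc03g005940.4.1 was highest at MG, at 5315 ± 726 CPM. Among the others, the tonoplast intrinsic protein 3.2 Solyc03g019820.3.1, a water channel of the storage vacuole membrane, was highest at 49 DAF (4847 ± 817 CPM), the Rossmann-fold protein Solyc01g098850.3.1 at MG (7035 ± 78.8 CPM), the DUF1264 protein Solyc09g098120.3.1, whose domain is of unknown function, at MG (5713 ± 335 CPM), the BAG6-like co-chaperone Solyc01g095320.4.1 at MG (7121 ± 1526 CPM), and the poly(ADP-ribose) polymerase Solyc11g067250.3.1, of a family of DNA repair enzymes, at B (4383 ± 245 CPM). The 7 members not named here, all without a description, had ranks between 14 and 45, filling means between 1279 and 5129.9 CPM, and R14 to filling ratios between 0.239 and 1.01.

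**Figure D3:**
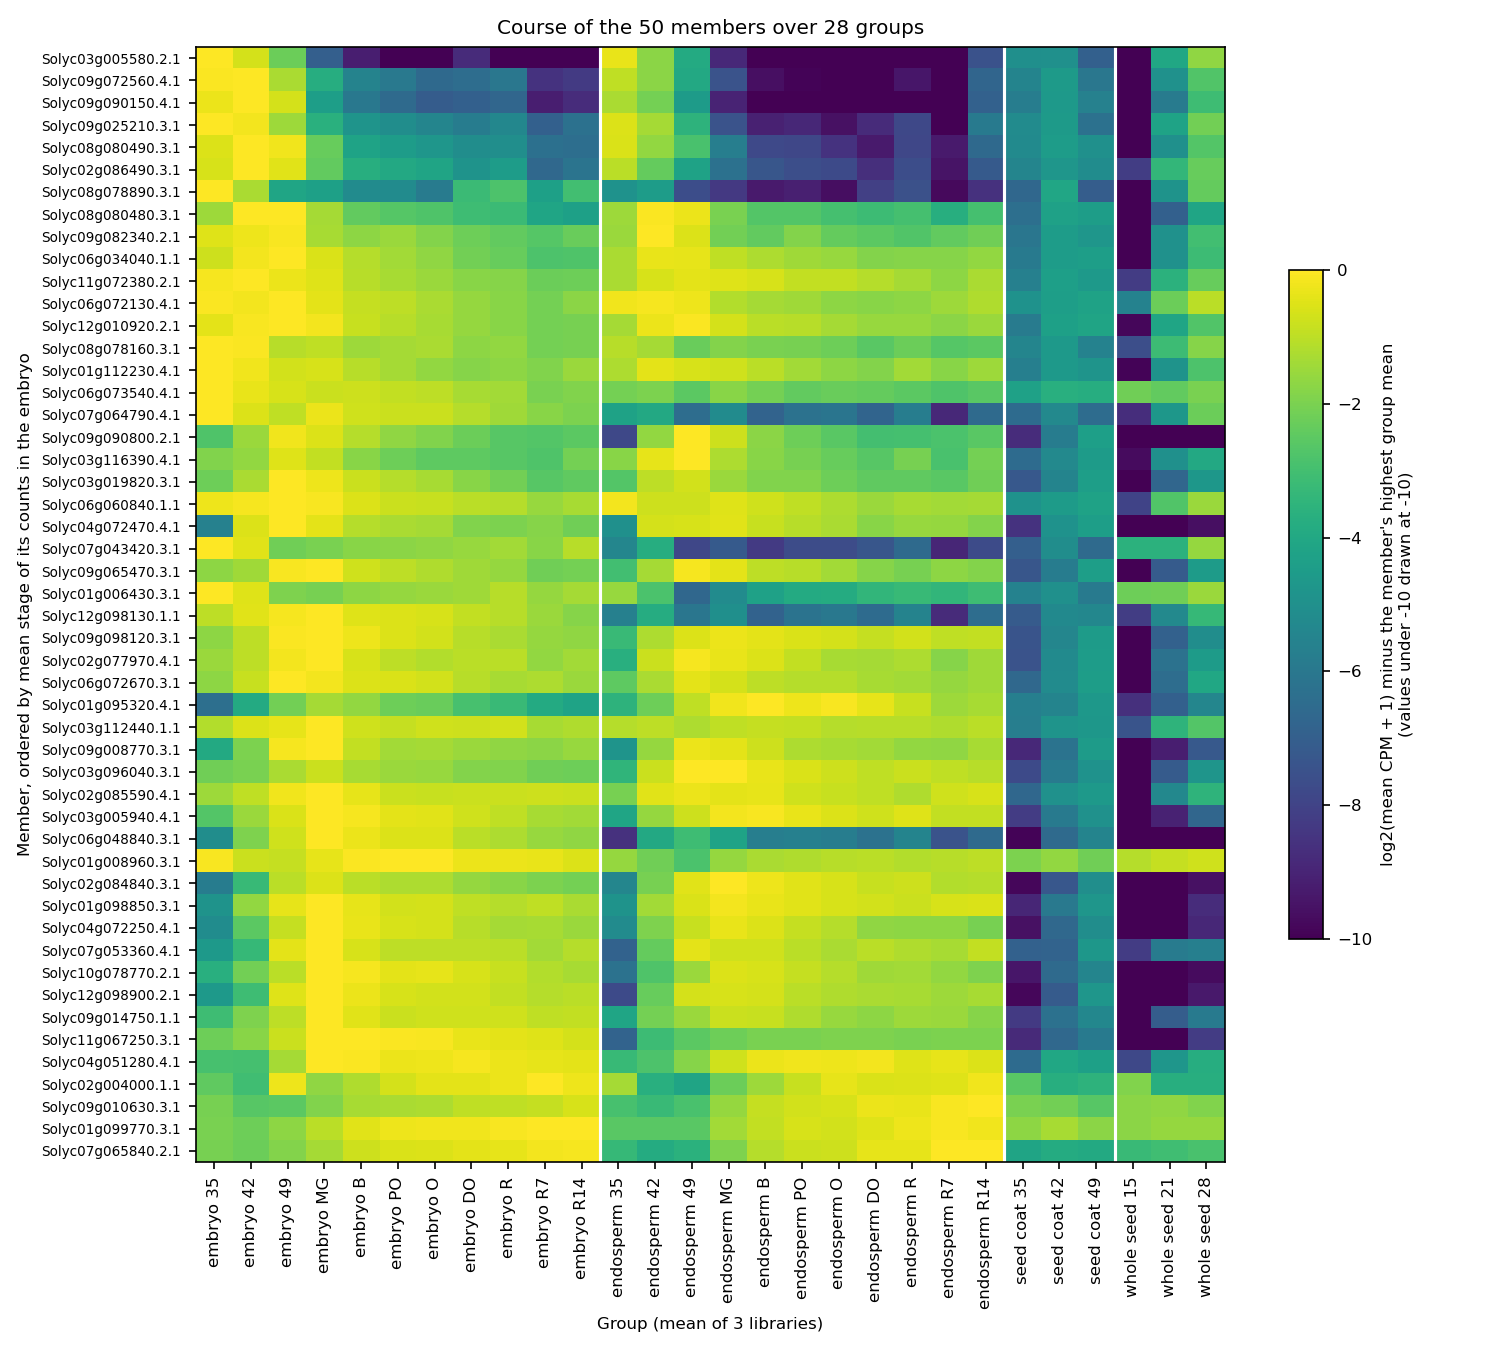
Mean level of each member (rows, ordered by the mean stage of their embryo counts) in each of the 28 groups (columns, embryo, endosperm, seed coat and whole seed, each by age), coloured by log2 of the mean CPM + 1 minus that of the member's highest group. There are 25 of 50 rows with their highest embryo group at 35, 42 or 49 DAF and 19 at MG, and dark cells, the lowest levels, for most members in the seed coat and in whole seed at 15 DAF.

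At R14 the embryo level was below the filling mean in 35 of 50 members, and 7 of these were more than 10 times lower. The median ratio of R14 to filling was 0.539 (0.277 with TMM factors), with 15 members above 1 (5 with TMM factors). The 5 with the largest ratios, none with a description, were led by Solyc01g099770.3.1, with 6683, 6257 and 5994 CPM at R14, 3.89 times its filling mean of 1621 CPM. Solyc07g065840.2.1 had 24969.8, 21538 and 22568 CPM at R14, 3.72 times its filling mean. Ratios of 3.39, 3.37 and 2.19 followed for Solyc04g051280.4.1, Solyc09g010630.3.1 and Solyc02g004000.1.1. Without embryo 49 DAF replicate 2, on which its filling mean rests, the ratio of Solyc02g004000.1.1 was 5.6, above the others. The smallest was that of Solyc03g005580.2.1 (given above), and Solyc02g086490.3.1 was at 0.0172.

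To ask how the members changed once filling was over, R14 was tested against MG in the embryo with edgeR, in libraries that the choice did not use. A gene was called where its log2 fold change exceeded 1 in size and its adjusted p lay under 0.05. All 50 members passed the filter on low counts. Of the 50, 40 were lower at R14, where 7.57% of the 24676 genes tested were, and 0 were higher, where 12% were. The log2 fold changes (R14 over MG) of members had a median of -1.70 beside 0 over all genes. DESeq2 called 0 higher too, and 3 members were higher at an unadjusted p under 0.05. Scaling by library totals gave 4 higher and 35 lower, and leaving out embryo MG replicate 1 gave 1 and 40.

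The deepest falls were in leading transcripts. Solyc09g072560.4.1 had 269.6, 313 and 507 CPM at R14, against 16567, 5388 and 3585 CPM at MG, which gave -4.95 ± 0.87, adjusted p = 5.33e-06, on the log2 scale. Solyc09g090150.4.1 had 169, 206 and 355 CPM at R14, against 8774, 3965 and 2277 CPM at MG (-4.75 ± 0.96, adjusted p = 6.01e-05). Solyc03g005580.2.1 fell likewise (-4.46 ± 0.86, adjusted p = 2.96e-05). In none of these 3 did the R14 and MG libraries overlap. In all 3, embryo MG replicate 1 was the highest MG library and adds to the size of the fall. For Solyc03g005580.2.1 most of the MG mean came from it, so the size of that fall rests on it. All 11 LEA and stress protection members fell, with a median log2 fold change of -1.63, and 9 of them passed with library totals or without replicate 1 and 10 without replicate 2 or without embryo R14 replicate 1. Of the 39 other genes with such descriptions 20 fell and 3 rose. Both vicilin-like proteins fell (Solyc09g065470.3.1 -2.44 ± 0.28, Solyc02g085590.4.1 -1.15 ± 0.24), as did oleosin (-2.52 ± 0.24) and the defensin Solyc04g072470.4.1 (-2.08 ± 0.52). The call of Solyc02g085590.4.1 was lost with library totals (-0.82) and without embryo R14 replicate 1 (-0.91), and that of the defensin without replicate 1 (adjusted p = 0.068). Of the 27 without a description 18 fell. The 10 that did not pass included Solyc07g065840.2.1 (0.87 ± 0.14) and the poly(ADP-ribose) polymerase Solyc11g067250.3.1 (-0.96 ± 0.28).

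In the endosperm 5 of the 6 leading transcripts fell within filling while most others rose. Of 50 members, 28 were higher and 11 lower at 49 than at 35 DAF (19.6% and 23.2% of all genes tested), with a median log2 fold change of 1.40 beside -0.05 over all genes. Without endosperm 35 DAF replicate 3 the counts were 28 and 8, with all of ranks 1 to 6 called as before. In the 3 libraries of 35 DAF the 109 embryo genes summed to 38.6, 58.0 and 122 CPM, replicate 3 last, and the calls lost were falls of Solyc07g064790.4.1, Solyc08g078890.3.1 and Solyc07g043420.3.1. Solyc09g025210.3.1 had 16166, 9982 and 10068 CPM at 49 DAF, against 92020.4, 108550.0 and 88439 CPM at 35 DAF (-2.67 ± 0.70, adjusted p = 7.92e-04). Solyc03g005580.2.1 had 4380.0, 3377 and 3932 CPM, against 43105, 51393 and 41985 CPM (-3.22 ± 0.81, adjusted p = 4.79e-04), and Solyc09g090150.4.1 fell as well (-2.91 ± 0.88, adjusted p = 0.00345). The largest fall was that of Solyc01g006430.3.1, with 29.0, 20.7 and 17.1 CPM at 49 DAF, against 705, 819 and 898 CPM at 35 DAF (-4.84 ± 0.32, adjusted p = 5.26e-20). Solyc09g082340.2.1 went the other way, with 78962, 61785 and 68094 CPM at 49 DAF, against 41574, 38309 and 26969.8 CPM at 35 DAF (1.28 ± 0.27, adjusted p = 3.58e-05).

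The 3 largest rises were in an AWPM-19-like and 2 LEA proteins. The AWPM-19-like protein Solyc09g090800.2.1, a membrane protein, had 2781, 3239 and 2845 CPM at 49 DAF, against 13.7, 10.9 and 11.3 CPM at 35 DAF (8.27 ± 0.56, adjusted p = 4.37e-19). LEA D-29 (Solyc12g098900.2.1) had 3873, 4181 and 3899 CPM, against 25, 25.1 and 31.8 CPM (7.53 ± 0.52, adjusted p = 5.00e-19), and the LEA protein Solyc07g053360.4.1 rose similarly (6.80 ± 0.45, adjusted p = 5.43e-20). Of the 11 LEA and stress protection members 10 rose and 0 fell by edgeR (0 fell by DESeq2 and 0 were lower at an unadjusted p under 0.05), and the metallothionein Solyc01g112230.4.1 did not pass (0.96 ± 0.21). Of the 39 other genes so described 33 rose and 3 fell. Of the 1649 tested genes described in words outside the role groups, members left out, 654 rose and 283 fell. Described genes of no particular role thus leaned to rises here too. Both vicilin-like proteins, both oil body proteins, the defensin and the 7 other described members rose too. Of the 27 without a description 6 rose and 11 fell.

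At MG over 49 DAF in the endosperm, 5 members were higher and 12 lower (6.42% and 6.34% of all genes tested), median log2 fold change -0.23 beside 0. All of ranks 1 to 6 fell. Solyc03g005580.2.1 had 196, 111 and 57.0 CPM at MG (-5.26 ± 0.89, adjusted p = 3.76e-06, over 49 DAF), Solyc09g090150.4.1 217, 300.2 and 98.9 CPM (-4.75 ± 0.96, adjusted p = 7.60e-05) and Solyc09g025210.3.1 1048, 897 and 452 CPM (-4.18 ± 0.75, adjusted p = 1.06e-05). Solyc02g004000.1.1 (1.65 ± 0.53, adjusted p = 0.013), Solyc07g065840.2.1 (1.42 ± 0.14, adjusted p = 2.44e-12) and Solyc01g006430.3.1 (1.24 ± 0.28, adjusted p = 3.11e-04) rose most. With library totals the counts were 7 higher and 9 lower, and 2 of the 5 rises and 10 of the 12 falls passed with each of the 6 libraries left out in turn.

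At R14 over MG in the endosperm, 4 members were higher and 16 lower (5.72% and 6.40% of all genes tested), with a median log2 fold change of -0.90 beside 0. Without replicate 3 of R14 the counts were 4 and 27, and with library totals 5 and 11. The 4 that rose were Solyc01g006430.3.1 (1.91 ± 0.28, adjusted p = 2.08e-07), Solyc02g004000.1.1 (1.86 ± 0.53, adjusted p = 0.00563), Solyc07g065840.2.1 (1.75 ± 0.14, adjusted p = 2.51e-15) and Solyc09g010630.3.1 (1.38 ± 0.17, adjusted p = 5.88e-09), with 1.97, 1.71, 1.77 and 1.40 for these without R14 replicate 3. With all libraries Solyc06g048840.3.1 fell most (-2.51 ± 0.53, adjusted p = 1.49e-04), followed by the AWPM-19-like Solyc09g090800.2.1 (-1.95 ± 0.42, adjusted p = 2.53e-04) and the small heat shock protein Solyc04g072250.4.1 (-1.88 ± 0.38, adjusted p = 7.94e-05), with -3.46, -2.17 and -2.0 without that library. Without it Solyc09g072560.4.1, Solyc12g098130.1.1 (-4.06), Solyc02g086490.3.1 (-3.86) and Solyc07g064790.4.1 (-3.84) passed as well and fell further than these. Of the 11 LEA and stress protection members 8 fell, with or without that library, and 0 rose by edgeR (0 by DESeq2 and 0 at an unadjusted p under 0.05). With library totals, without replicate 1 or without endosperm MG replicate 1, 6 fell. Without replicate 2 the count was 5 and without replicate 3 it was 9. Of the 39 other genes so described 15 fell.

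Replicate 3 of endosperm R14 decided the values of leading members. Solyc09g072560.4.1 had 45.0, 38.9 and 3118 CPM in the 3 endosperm R14 libraries, the last value being replicate 3, and Solyc09g090150.4.1 had 27.6, 18.0 and 2571 CPM. Both replicate 3 values lay above those of the same gene in every embryo R14 library. Against MG, Solyc09g072560.4.1 gave a log2 fold change of 0.59 ± 0.74, not called, and -4.19 (adjusted p = 9.89e-06) without replicate 3. For Solyc09g090150.4.1 the values were 1.98 ± 0.85, not called, and -3.39 (adjusted p = 0.00101). In the 3 endosperm R14 libraries the 4 members with the largest ratio of embryo to endosperm during filling summed to 6.92, 24.5 and 132 CPM. The 109 embryo genes summed to 34.8, 36.8 and 50.0 CPM and the 168 endosperm genes to 1495, 1569 and 2389.9 CPM. All 3 sums were highest in replicate 3, and their part in these values was not tested.

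During filling the endosperm carried the members too, most of them at a level close to that of the embryo by library totals. The mean log2 TMM factor lay between -0.92 and -0.54 in the embryo and between -0.38 and -0.05 in the endosperm at these ages. Scaling with TMM factors would thus raise the embryo levels more, and the ratios here are by library totals. The ratio of the embryo to the endosperm mean over 35, 42 and 49 DAF had a median of 1.37, was over 2 in 16 members and over 10 in 4, and under 1 in 7. Without endosperm 42 DAF replicate 3 it was over 2 in 17, over 10 in 4 and under 1 in 11, and without endosperm 35 DAF replicate 3 over 2 in 16, over 10 in 4 and under 1 in 7. The 4 were Solyc12g098130.1.1 (ratio 20.2), Solyc07g043420.3.1 (19.6), Solyc08g078890.3.1 (17.9) and Solyc07g064790.4.1 (17.4), followed by Solyc06g048840.3.1 (4.95). Solyc12g098130.1.1 had 799, 960.3 and 869.8 CPM at 35 DAF, 1339.6, 1150.5 and 1347 CPM at 42 DAF and 1894, 1461 and 1419.6 CPM at 49 DAF in the embryo, and 15.7, 30.1 and 57.5 CPM, 59.5, 37.4 and 280.3 CPM and 35.5, 27.2 and 12.4 CPM at those ages in the endosperm. Its tissues did not overlap at any of the 3 ages. The endosperm was higher in the BAG6-like Solyc01g095320.4.1 (0.379), 1-Cys peroxiredoxin Solyc03g096040.3.1, a seed antioxidant enzyme (0.540), dehydrin Solyc02g084840.3.1 (0.603), LEA Dc3 Solyc03g116390.4.1 (0.627) and the small heat shock protein Solyc04g072250.4.1 (0.887). With TMM factors Solyc04g072250.4.1 averaged 285, 2198 and 5619 CPM in embryo and 193, 2241 and 4760 CPM in endosperm at 35, 42 and 49 DAF. Its embryo mean was then the higher at 35 and 49 DAF.

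In endosperm 42 DAF replicate 3 embryo transcripts stood above the other libraries of the group: those 4 members summed to 199, 176 and 1158 CPM in the 3 libraries and the 109 embryo genes to 56.0, 44.5 and 193 CPM, replicate 3 last. The part of embryo RNA in that library's member levels was not tested.

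In libraries outside the choice, the embryo was tested against the endosperm at MG, where 15 members were higher in the embryo and 1 lower (10.6% and 16.5% of all genes tested), with a median log2 difference of 0.59 beside -0.01. Solyc07g043420.3.1 had 497, 485 and 447 CPM in embryo, against 5.28, 20.1 and 11.1 CPM in endosperm (5.28 ± 0.82, adjusted p = 2.50e-07). Solyc12g098130.1.1 (5.03 ± 0.84, adjusted p = 1.16e-06) and Solyc07g064790.4.1 (4.86 ± 0.84, adjusted p = 2.06e-06) came next. The BAG6-like Solyc01g095320.4.1 was the member lower in embryo, with 5416, 7589.8 and 8358 CPM, against 14166, 15083 and 17558 CPM in endosperm (-1.17 ± 0.32, adjusted p = 0.00215). Of the 11 LEA and stress protection members 0 passed by edgeR and 0 by DESeq2, with 2 higher and 1 lower at an unadjusted p under 0.05. Of the 27 without a description 13 were higher in the embryo.

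At R14 the embryo was higher in 7 members and lower in 9 (15.3% and 16.6% of all genes tested), with a median log2 difference of -0.31 beside 0. Without endosperm R14 replicate 3 the counts were 12 and 5, and with library totals 7 and 5. Solyc07g043420.3.1 had 1139, 951 and 599.7 CPM in embryo, against 2.67, 5.41 and 16.3 CPM in endosperm (6.54 ± 0.87, adjusted p = 4.37e-09), Solyc08g078890.3.1 502, 295 and 191 CPM, against 2.24, 4.92 and 11.1 CPM (5.51 ± 0.95, adjusted p = 1.77e-06), and Solyc06g048840.3.1 4918, 8583 and 8865 CPM, against 106, 165 and 474 CPM (4.69 ± 0.58, adjusted p = 4.97e-10). These 3 were higher in every embryo library than in any endosperm library, and without endosperm R14 replicate 3 the differences were 7.62, 6.34 and 5.64. The BAG6-like Solyc01g095320.4.1 was lower in the embryo (-3.05 ± 0.35, adjusted p = 4.17e-11, and -3.00 without that library). Solyc03g005580.2.1 (-3.78 ± 0.84, adjusted p = 1.15e-04) and Solyc09g090150.4.1 (-2.09 ± 0.86, adjusted p = 0.0347) passed as lower only with replicate 3 of the endosperm in the fit, the differences without it being -1.13 (adjusted p = 0.209) and 3.28 (adjusted p = 5.67e-04).

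**Figure D4:**
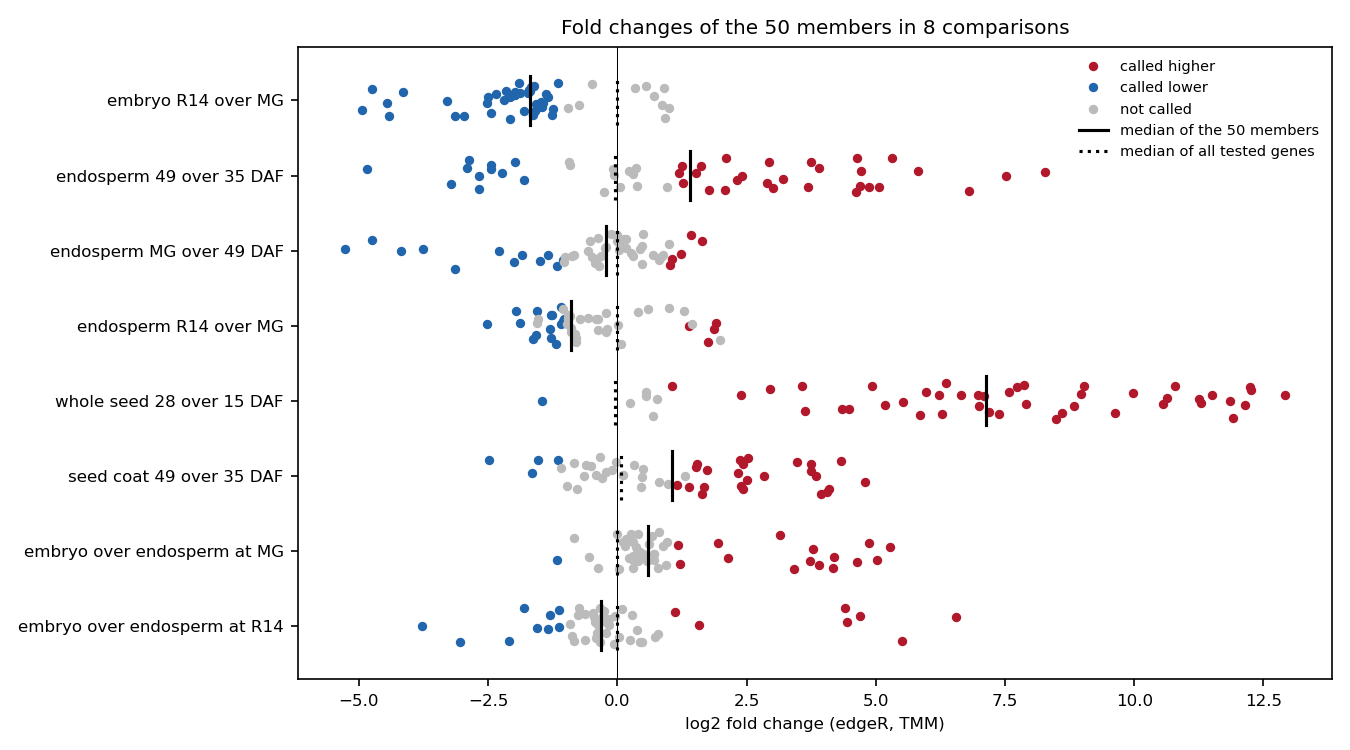
Log2 fold change of the 50 members (points) in each of the 8 comparisons tested, red where called higher and blue where called lower by edgeR, grey where not called, with the median of the members as a solid line and that of all genes tested as a dotted line. The medians run between -1.70 for embryo R14 over MG and 7.14 for whole seed 28 over 15 DAF.

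The change between MG and R14 was then compared between the tissues. In 17 of 50 members the embryo change minus the endosperm change was negative and passed the test (3.55% of all genes tested), and in 0 it was positive (3.86%; DESeq2 0, and 0 members at an unadjusted p under 0.05). Without endosperm R14 replicate 3 the 17 became 9. Among those that remained were oleosin Solyc06g034040.1.1, with a difference of -1.71 ± 0.32 (adjusted p = 1.26e-04) and -1.40 without that library, and the BAG6-like Solyc01g095320.4.1, with -1.87 ± 0.46 (adjusted p = 0.00277) and -1.82. With each of the 12 libraries of these groups left out in turn, 7 of the 17 passed throughout. Oleosin had 601, 1078 and 1111 CPM at R14, against 4081, 4487 and 4094 CPM at MG in the embryo, and 1613, 1814 and 2737 CPM at R14, against 2867, 3551 and 3186 CPM at MG in the endosperm.

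**Figure D5:**
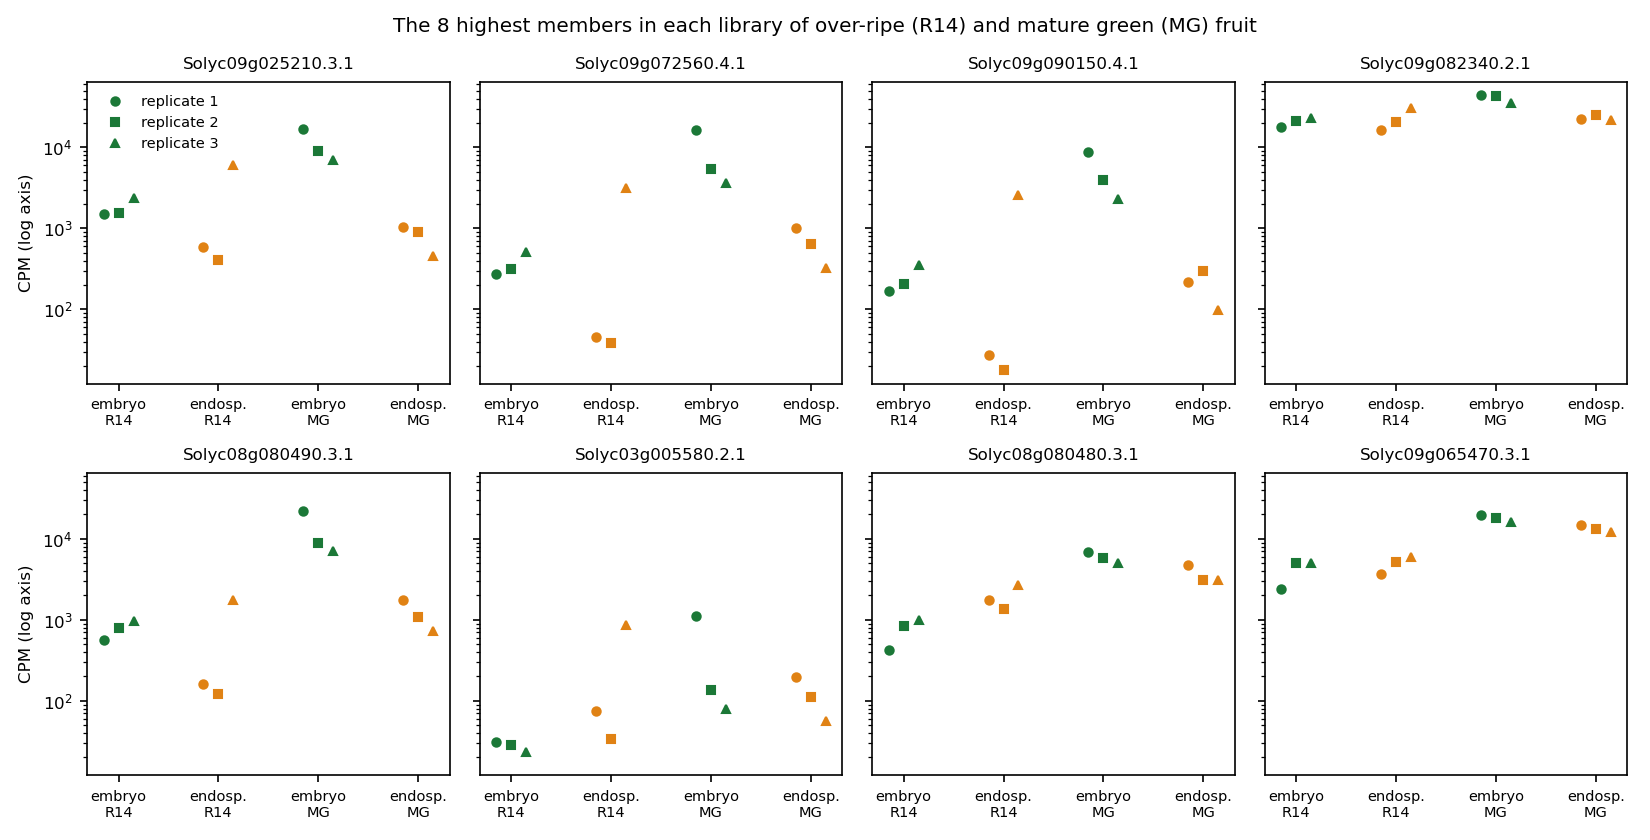
CPM (log scale) of the 8 members with the most reads in each library of embryo and endosperm at R14 and MG; each point is a library, and triangles are replicate 3. For Solyc09g072560.4.1 that library is at 3118 CPM, and the other endosperm R14 libraries are at 45.0 and 38.9 CPM.

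In young whole seeds most members were barely detected. At 15 DAF, 33 of 50 were under 10 CPM in every library and 8 above 100 CPM in every library. At 28 over 15 DAF, 44 were higher and 1 lower (11.6% and 11.4% of all genes tested), with a median log2 fold change of 7.14 (7.05 with the gene at 0 put at its bound) beside -0.05. Solyc03g005580.2.1 had 16696, 20669.5 and 16002 CPM at 28 DAF, against 3.22, 2.31 and 3.35 CPM at 15 DAF (12.92 ± 1.22, adjusted p = 3.72e-13). Solyc09g025210.3.1 had 29211, 36574 and 30147 CPM, against 7.90, 9.58 and 8.0 CPM (12.26 ± 1.05, adjusted p = 1.00e-14), and Solyc08g080490.3.1 8971, 11746 and 9744 CPM, against 2.27, 2.90 and 3.02 CPM (12.23 ± 0.85, adjusted p = 1.84e-18). Groups lay far apart in all 3.

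The AWPM-19-like Solyc09g090800.2.1 had 0.185, 1.10 and 3.85 CPM at 28 DAF, against 0 counts in the 3 libraries of 15 DAF, at least 34.0-fold higher against a floor of 3 counts over the group. All 11 LEA and stress protection members and both vicilin-like and oil body proteins rose. Solyc02g004000.1.1 was the member that fell, with 538, 501 and 599.6 CPM at 28 DAF, against 3081, 1631 and 1147 CPM at 15 DAF (-1.46 ± 0.53, adjusted p = 0.0216), a call that was lost without replicate 1 of either age or replicate 2 of 28 DAF (0 lower). Members already high at 15 DAF included Solyc09g010630.3.1 with 3391, 3021 and 2761 CPM and Solyc07g065840.2.1 with 3119.9, 2656 and 2483 CPM.

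The seed coat carried most members at a low fraction of the embryo level. The embryo mean over the 3 ages was a median of 21.8 times the seed coat mean, and lay between 15 and 31 times in 38 of 50 members. At 35 DAF the ratio had quartiles of 23.7 and 49.1, at 42 DAF of 16.0 and 21.2, and at 49 DAF of 16.7 and 21.8. Of the 50, only Solyc01g099770.3.1 and Solyc09g010630.3.1 had a seed coat mean above the embryo mean. The 109 embryo genes summed to 999.7, 858 and 484 CPM in embryo at 35, 42 and 49 DAF, against 26.8, 48.2 and 32.7 CPM in seed coat, and the part of embryo or endosperm RNA in the seed coat values was not tested.

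In the seed coat libraries LEA transcripts were higher at 49 than at 35 DAF. The part of embryo or endosperm RNA in this rise was not tested. At 49 over 35 DAF, 24 were higher and 4 lower (13.4% and 11.6% of all genes tested), with a median log2 fold change of 1.06 beside 0.07, and library totals gave 30 and 1. LEA D-29 (Solyc12g098900.2.1) had 119, 249.5 and 317 CPM at 49 DAF, against 3.51, 3.27 and 10.6 CPM at 35 DAF (4.78 ± 0.47, adjusted p = 6.25e-13). Dehydrin Solyc02g084840.3.1 (4.34 ± 0.36, adjusted p = 2.90e-15) and the small heat shock protein Solyc04g072250.4.1 (4.10 ± 0.42, adjusted p = 3.07e-12) came next, and 10 of 11 LEA and stress protection members rose and 0 fell by edgeR (0 by DESeq2 and 0 at an unadjusted p under 0.05). Of the 39 other genes so described 31 rose. Solyc03g005580.2.1 (-2.47 ± 0.79, adjusted p = 0.0085), Solyc09g025210.3.1 (-1.65 ± 0.68, adjusted p = 0.044) and Solyc02g004000.1.1 (-1.54 ± 0.53, adjusted p = 0.0151) fell most, and 1 of the 4 falls passed with each of the 6 libraries left out in turn. At 35 DAF a single gene held a mean of 28.9% of seed coat counts, which lowers every other CPM of those libraries.

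Other genes of filling that are not among the 50 were counted from the same descriptions. These cover 1818 of 33976 genes, so the numbers of genes are not those of the genome. Of 2 other storage protein genes, 1 rose in embryo R14 over MG (12% of all genes tested, median log2 fold change 1.29), where both vicilin-like members fell. In endosperm at 49 over 35 DAF 1 fell (23.2%, median -5.35), as did 1 in whole seed at 28 over 15 DAF (11.4%, -5.49). A median of 2 genes does not describe storage genes as a group. None passed in seed coat (-3.25). Both vicilin-like members rose in these 3 comparisons. Of 7 other oil body genes, 6 passed as lower in embryo R14 over MG (7.57% of all genes tested). In endosperm and in seed coat at 49 over 35 DAF 5 passed as higher (19.6% and 13.4%). In whole seed at 28 over 15 DAF 7 passed as higher (11.6%). Of 8 genes with words of fatty acid synthesis in their descriptions, 1 rose and 4 fell in endosperm at 49 over 35 DAF (19.6% and 23.2% of all genes tested). In seed coat 1 of these fatty acid genes rose and 2 fell (13.4% and 11.6%). Their medians on the log2 scale in endosperm were 2.00 for the oil body genes and -0.81 for the fatty acid genes, beside -0.05 over all genes.

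The regulators of filling took different courses. Tomato FUS3 (Solyc02g094460.2.1), a B3 factor of the reserve programme in Arabidopsis, averaged 153, 103 and 16.4 CPM in embryo at 35, 42 and 49 DAF, 5.74 CPM at MG and 0.918 CPM at R14. In endosperm it averaged 87.6, 16.6 and 0.388 CPM at the first 3 ages. Tomato WRI1 (Solyc01g096860.3.1), a fatty acid synthesis factor, averaged 246, 135 and 22.3 CPM in embryo and 60, 17.0 and 0.683 CPM in endosperm. ABI3-1 (Solyc06g083600.3.1) averaged 127, 115 and 139 CPM in embryo, 148 CPM at MG and 102 CPM at R14. The bZIP factor ABI5 (Solyc09g009490.4.1) averaged 27.9, 42.6, 91.6, 177 and 182 CPM at the same stages. ABI3-2 (Solyc06g083590.4.1) averaged 79.9, 46.7, 72.7, 97.1 and 119.9 CPM. By library totals FUS3 and WRI1 averaged less at 49 than at 35 DAF, and the means of ABI5 at R14 and MG differed by less than their SDs, given as a description with no test.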

How the data were processed

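RNA of greenhouse tomato seeds, whole or dissected, was sequenced as single-end reads. Per the study's methods, the authors quantified reads with Salmon by quasi-mapping to the ITAG 4.0 transcripts of the SL 4.0 build, and deposited 1 table of estimated counts per library and gene. These expected counts were not normalized by the authors and 10.5% were not whole. Here they were rounded for tests, and CPM was computed with the library total.

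The members, lists and tests were chosen with earlier results of these data known. edgeR 4.0.16 (R 4.3.3) was fitted to all 84 libraries with 1 coefficient per group, filterByExpr, TMM factors and trended dispersion (quasi-likelihood F test). P-values were adjusted by Benjamini-Hochberg over 24676 genes, and ± beside a log2 fold change is its standard error. On simulated counts for embryo R14 over MG (24457 genes), 98 of 100 genes changed by a log2 of 2 and 91 of 100 changed by 1.5 were recovered. Of the unchanged genes 7 were called. Counts were drawn from the trended dispersion, with all other genes equal at R14 and MG. The simulation thus held no outlying library and no broad shift, and its rates do not cover members whose replicates spread further. Replicates were separate samples of seeds.

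Members named are the 12 with the most reads, ranks 48 to 53, the 3 largest called rises and falls per comparison, the 5 highest and 5 lowest ratios of R14 to filling and of embryo to endosperm, and every member the study describes. Roles came from words in the study's descriptions. Alternatives were DESeq2 1.42.0, library totals, no filter, compared groups only, a replicate block and each library left out. IDs matched no RefSeq entry (0), and no sequences are shown.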

Additional observations from a re-analysis of the deposited data

Results flagged for a closer look

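The change between MG and R14 differed between embryo and endosperm in 17 members, by a test of the difference itself, and in every one the embryo change was the lower. The differences given, for 14 of them, are log2, embryo minus endosperm. Each is followed by its value without endosperm R14 replicate 3. In that library the sums of the embryo genes and of the endosperm genes were both the highest of its group, and their part was not tested. They were -4.41 (-2.06 without that library, adjusted p = 0.113) for Solyc09g025210.3.1, -5.54 (-0.76 without that library, adjusted p = 0.631) for Solyc09g072560.4.1, and -6.73 (-1.36 without that library, adjusted p = 0.388) for Solyc09g090150.4.1. Solyc09g082340.2.1 had -1.14 (-0.81 without that library, adjusted p = 0.167), Solyc08g080490.3.1 -3.47 (-1.14 without that library, adjusted p = 0.256), and Solyc03g005580.2.1 -5.74 (-3.08 without that library, adjusted p = 0.0336). Solyc08g080480.3.1 had -2.22 (-1.83 without that library, adjusted p = 0.00557), Solyc12g010920.2.1 -1.18 (-0.88 without that library, adjusted p = 0.0526), and Solyc02g086490.3.1 -3.10 (-0.29 without that library, adjusted p = 0.883). The BAG6-like Solyc01g095320.4.1 had -1.87 (-1.82 without that library, adjusted p = 0.00766) and Solyc01g006430.3.1 -1.56 (-1.62 without that library, adjusted p = 0.00475). Oleosin Solyc06g034040.1.1 had -1.71 (-1.40 without that library, adjusted p = 0.00223), the DUF1264 protein Solyc09g098120.3.1 -1.18 (-1.09 without that library, adjusted p = 0.0183) and the tonoplast intrinsic protein Solyc03g019820.3.1 -1.65 (-1.34 without that library, adjusted p = 0.0163). Of these, Solyc03g005580.2.1, Solyc08g080480.3.1, Solyc01g095320.4.1, Solyc01g006430.3.1, Solyc06g034040.1.1, Solyc09g098120.3.1 and Solyc03g019820.3.1 passed the test without that library as well. That check covers 1 library only. Of all 17 members, 7 passed with each of the 12 libraries of the 4 groups left out in turn, and those are not listed here. The embryo MG mean of Solyc03g005580.2.1 came mostly from replicate 1.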

How the results depend on the processing

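Member counts were the same within 1.5 times under most alternatives. Under scaling by library totals, embryo R14 over MG gave 4 higher, seed coat 49 over 35 DAF gave 1 lower and embryo over endosperm at R14 gave 5 lower. Fitting the compared groups only gave 8 negative differences of change, in place of 17. Leaving out 1 library or 1 replicate number gave 0 to 1 members higher in embryo R14 over MG, 2 to 5 higher in endosperm MG over 49 DAF, 4 to 7 higher and 10 to 28 lower in endosperm R14 over MG, 0 to 1 lower in whole seed, 2 to 4 lower in seed coat, 1 to 2 lower in embryo over endosperm at MG, 6 to 12 higher and 5 to 11 lower at R14, and 9 to 19 negative differences of change. Library totals moved the median of all genes by 0.32, -0.34, 0.21, 0.15, -0.37, 0.54 and 0.14 log2 in embryo R14 over MG, endosperm 49 over 35 DAF, endosperm MG over 49 DAF, endosperm R14 over MG, whole seed, seed coat and embryo over endosperm at R14. Over all genes, calls fell by more than 1.5 times in embryo R14 over MG (4827 as reported, 3089 with the compared groups only, 2957 without replicate 1), endosperm MG over 49 DAF (3150, and 1956 without replicate 2), endosperm R14 over MG (2991, and 1981 and 1765 without replicates 1 and 2), whole seed (5674, and 3598 without replicate 2) and the difference of change (1829, and 1079 and 565 without replicates 1 and 2). Leaving out libraries turned the direction of some values. In embryo over endosperm at R14 the log2 difference of Solyc09g090150.4.1 lay between -2.66 and 3.28 and that of Solyc09g072560.4.1 between -2.37 and 2.97, and in endosperm R14 over MG the same genes lay between -3.72 and 2.92 and between -4.51 and 1.61, the turn coming without replicate 3 of endosperm R14. In embryo over endosperm at MG Solyc03g005580.2.1 lay between -0.26 and 2.50, turning without embryo MG replicate 1. The cause was not tested. Leaving out single libraries, and the alternatives for the difference of change, were added after the data were seen. In no comparison did the deviations of same-numbered libraries correlate above 0.1 in all 3 pairs (r between -0.10 and 0.29 over genes), so the numbers were not taken as pairs. Between embryo and endosperm r was 0.29, 0.09 and 0.24 at MG and 0.27, 0.18 and 0.09 at R14. At both stages the sample codes of the tissues carry the same numbers. Pairs within a stage were not fitted, so tests between tissues ignore any such pairing. The replicate block joined same-numbered libraries over all groups. A replicate block gave 40 members lower in embryo R14 over MG, 28 and 11 in endosperm 49 over 35 DAF, and the same member counts as without it in the other comparisons.

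Depth limited members in whole seeds: over the group, at 15 DAF 1 had 0 counts and 3 had 1 to 3, and at 21 DAF Solyc09g090800.2.1 had 2. Groups of 3 libraries, ranks without transcript length, a chosen edge at rank 50 and shares that sum to 100% limit the rest.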
